A study of Mus musculus with 9 samples.

Results

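The 10 genes described here encode proteins that coat lipid droplets, take stored fat out of them or regulate lipases. Plin2, Plin3, Plin4 and Plin5 are perilipins, the coat proteins. Pnpla2, Lipe and Mgll encode 3 lipases, Abhd5 encodes a coactivator, and Hilpda and Angptl4 encode lipase inhibitors. The genes were taken as the rows of the deposited gene count table that carry these symbols, and all 10 were found among its 20591 rows. All 10 also passed the filter on low counts, which left 20535 genes for testing. The group was chosen by pathway with earlier results of these data in view, and it was selected on the measured higher Plin4 level of both fasted groups. The Plin4 differences from the ad libitum group are therefore given as a description, without a test.

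RNA was sequenced from substantia nigra lysate, the midbrain region that holds dopamine neurons, of wild type C57BL/6 mice. Mice of all groups had been through a sham surgery, and they were 12 weeks old when they were allocated to a diet. The ad libitum group had free access to food for 1 week, the 1 day group was fasted once for 24 hours, and the 1 week group was kept on intermittent fasting with 3 fasts of 24 hours. Fasts began 2 hours before lights off, and the ad libitum mice changed cages at the matching times. Each group has 3 libraries, named replicates 1 to 3. No label says that the libraries came from separate animals, so p-values describe only how these 9 libraries vary, which may be technical in part. The sources used here do not say what the sham surgery was, which sex the mice had or how long after the last fast tissue was taken.

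Cells store surplus fatty acids as triglyceride in lipid droplets, which perilipins cover and shield. Lipolysis runs in steps: Pnpla2 (adipose triglyceride lipase) removes the first fatty acid with the help of Abhd5, Lipe (hormone-sensitive lipase) acts on the diglyceride, and Mgll (monoglyceride lipase) on the monoglyceride. In the brain Mgll is best known for breaking down the endocannabinoid 2-arachidonoylglycerol, and droplets are found mainly in glia and ependymal cells.

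The ad libitum libraries held 38516394 to 45693865 counts, those of the 1 day group 37732284 to 46522059, and those of the 1 week group 36109995 to 54248856. All 11 listed markers of dopamine neurons were measured, and their summed level lay between 869 and 2113 CPM (the count scaled to the library's normalised size). Across groups, the deviations of 1 day replicate 2 and 1 week replicate 2 from their group means correlated at r = 0.41 over 16266 genes, the highest value of any such pair. Genes are not independent replicates, so this r is a description. Summed blood genes lay between 446 and 483 CPM in the ad libitum group, 282 and 329 in the 1 day group and 498 and 1506 in the 1 week group. The highest was 1 week replicate 3, which also had 501 CPM of the cortical transporter gene Slc17a7 against 4.31 to 49.2 CPM elsewhere. Summed choroid plexus markers stood at 381 CPM in ad libitum replicate 3, against 19.8 to 57.4 CPM elsewhere. Summed microglia markers lay between 250 and 276 CPM in the ad libitum group, 181 and 202 in the 1 day group and 151 and 251 in the 1 week group. The part of these differences in the results below was not tested, and in bulk tissue fewer cells of a type and less RNA per cell cannot be told apart.

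Among the coat proteins, Plin4 stood apart in level. Plin4 was at 13.5, 23.0 and 15.2 CPM in ad libitum replicates 1, 2 and 3. It was at 132, 66.4 and 128 CPM in the 1 day group and at 146, 198 and 252 CPM in the 1 week group. All 6 fasted libraries lay above all 3 ad libitum libraries, and the lowest 1 week library lay above the highest 1 day library. The means were 17.2 ± 5.08, 109 ± 36.9 and 199 ± 52.8 CPM (SD, n = 3), which the model gave as 6.33-fold after 1 day (log2 fold change 2.66, SE 0.33) and 11.6-fold after 1 week (3.53, SE 0.34). The lowest fasted value was that of 1 day replicate 2, and without 1 day replicate 2 and 1 week replicate 2 the log2 fold changes were 2.92 and 3.55. Without 1 week replicate 3, the library high in blood and cortical genes, the 1 week value was 3.33. Without ad libitum replicate 3, the library high in choroid plexus genes, the values were 2.58 after 1 day and 3.46 after 1 week.

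**Figure D1:**
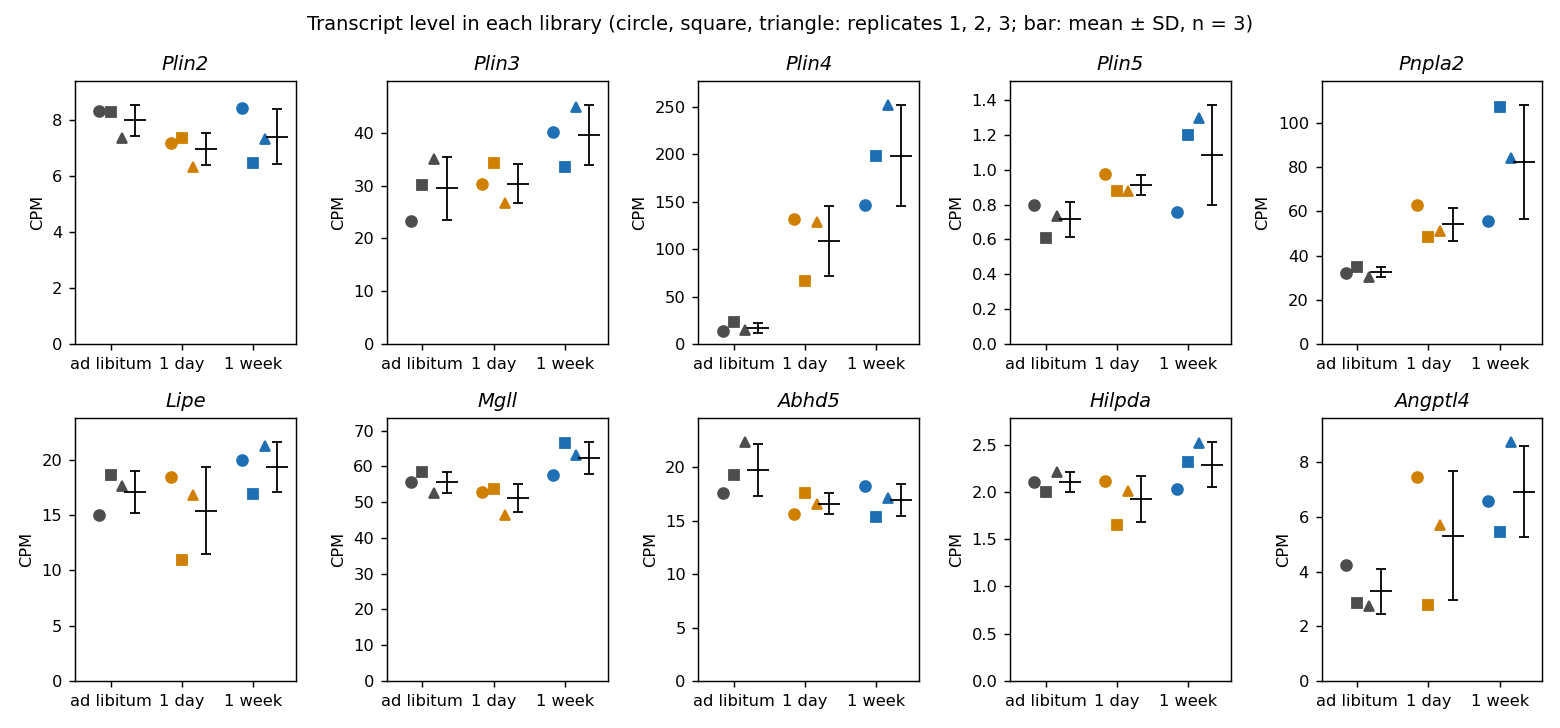
Level of each of the 10 genes in CPM (vertical axes, from 0) in the 9 libraries, grouped as ad libitum, 1 day and 1 week; symbols are replicates 1 to 3 and bars are mean ± SD. Plin4 and Pnpla2 show fasted groups that clear the ad libitum group, at up to 252 CPM for Plin4 and 107 CPM for Pnpla2.

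Plin2, the perilipin that most cell types carry, did not pass the test in any comparison. It was at 8.33, 8.30 and 7.37 CPM in the ad libitum group, 7.19, 7.38 and 6.32 in the 1 day group and 8.44, 6.49 and 7.33 in the 1 week group. The groups overlapped, with a log2 fold change after 1 week of -0.11 (95% interval -0.43 to 0.22, edgeR adjusted p = 0.835). Plin3, a perilipin that moves between cytosol and new droplets, was the most abundant coat transcript of ad libitum mice per length. Its levels were 23.3, 30.1 and 35.1 CPM in the ad libitum group, 30.2, 34.2 and 26.7 in the 1 day group and 40.2, 33.5 and 44.9 in the 1 week group. The 1 week libraries were the higher ones on average but overlapped with the ad libitum libraries (log2 fold change 0.42, interval 0.05 to 0.80, edgeR adjusted p = 0.385).

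Plin5, which ties droplets to mitochondria in oxidative tissues, was the rarest of the 10 genes, with 21 to 56 counts per library. It was at 0.799, 0.608 and 0.737 CPM in the ad libitum group, 0.977, 0.878 and 0.876 in the 1 day group and 0.757, 1.20 and 1.29 in the 1 week group. The 1 day libraries lay above the ad libitum libraries without overlap, while 1 week replicate 1 fell among the ad libitum values. Neither difference passed (log2 fold change 0.35 and 0.59, edgeR adjusted p = 0.641 and 0.440), and at these counts the 95% intervals reached 0.93 and 1.17.

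Measured per kilobase of exon, the make-up of the 4 perilipin transcripts differed between the groups. The shares were worked out after the values were seen and carry no test. Plin4 made up 17.3, 23.5 and 15.9% of the summed perilipin CPM per kb in the ad libitum libraries. It made up 64.5, 45.6 and 66.7% in the 1 day libraries and 61.5, 72.2 and 72.2% in the 1 week libraries. Plin3 went from a mean share of 51.4 ± 6.00% to 27.5 ± 8.41% and 22.2 ± 4.0%, and Plin2 from 27.4 ± 4.67% to 12.1 ± 2.98% and 8.17 ± 2.35% (SD, n = 3). The summed level itself was 15.6 ± 1.86, 31.3 ± 5.39 and 49.7 ± 9.81 CPM per kb, so the lower shares of Plin2 and Plin3 stood beside a larger total.

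**Figure D2:**
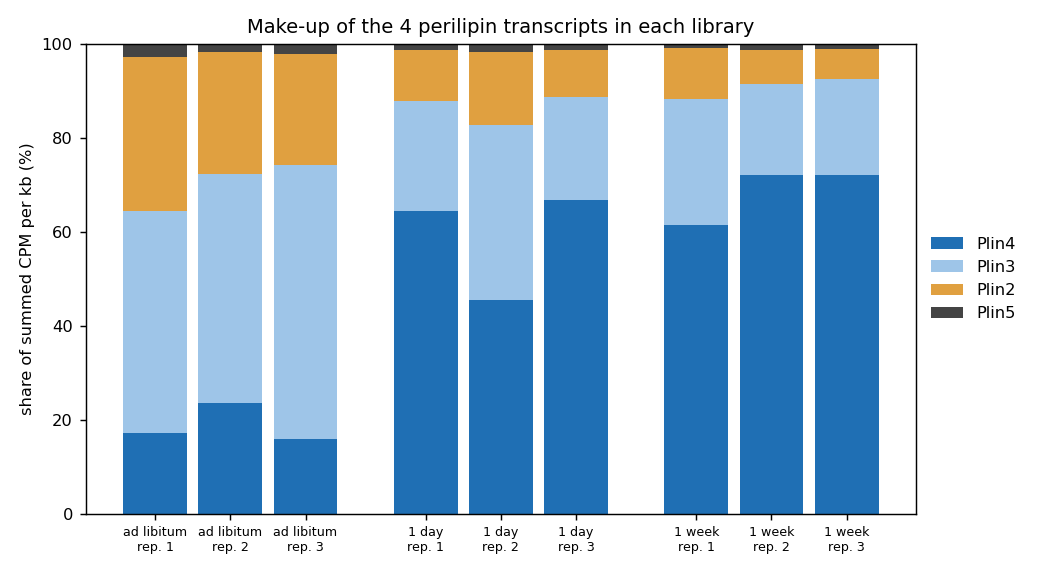
Share of each perilipin (colours) in the summed CPM per kb of Plin2, Plin3, Plin4 and Plin5, in percent, with 1 bar for each of the 9 libraries. Plin4 takes 15.9 to 23.5% of the bar in ad libitum libraries and 45.6 to 72.2% in fasted ones.

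Plin4 and Plin5 lie next to each other on chromosome 17, and their promoters are shown because these neighbours had unlike values. Each sequence is the 250 bases before the annotated start (RefSeq, GRCm38.p6, 5′ to 3′ on the gene's strand), with the promoter of Pnpla2 beside them as the member that rose after 1 week. Capitals mark matches to any of 4 motifs searched on both strands. The glucocorticoid receptor half-site was searched as AGAACA. The core of the hypoxia response element was searched as ACGTG. The half-site of PPAR and other nuclear receptors was searched as AGGTCA. The core of the TATA box was searched as TATAA. No 2 of these overlapped in the windows shown.
Plin4, minus strand, chr17:56109783-56110032: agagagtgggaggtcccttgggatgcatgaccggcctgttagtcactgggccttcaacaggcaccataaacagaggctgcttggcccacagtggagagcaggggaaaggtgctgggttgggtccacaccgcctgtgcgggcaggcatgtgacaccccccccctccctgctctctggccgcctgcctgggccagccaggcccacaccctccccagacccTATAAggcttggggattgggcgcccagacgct
Plin5, minus strand, chr17:56117549-56117798: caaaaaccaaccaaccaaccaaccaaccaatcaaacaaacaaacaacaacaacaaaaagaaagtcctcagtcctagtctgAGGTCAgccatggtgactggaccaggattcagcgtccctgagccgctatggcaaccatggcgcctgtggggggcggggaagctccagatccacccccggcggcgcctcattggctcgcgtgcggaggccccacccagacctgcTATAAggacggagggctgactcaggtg
Pnpla2, plus strand, chr7:141454938-141455187: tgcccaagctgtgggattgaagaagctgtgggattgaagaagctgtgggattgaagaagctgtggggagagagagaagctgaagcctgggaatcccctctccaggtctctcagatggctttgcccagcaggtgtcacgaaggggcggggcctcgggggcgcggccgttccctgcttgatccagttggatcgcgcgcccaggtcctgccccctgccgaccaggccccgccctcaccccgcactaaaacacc
The Plin4 window held TATAA from 32 to 28 bases before the start. The Plin5 window held it from 27 to 23 bases before the start, and the nuclear receptor half-site from 170 to 165 bases before. A second annotated Plin5 start, not shown, had a window without any of the 4 motifs. The Pnpla2 window held none of them either. Of 32851 promoter windows of the same length, 22.8% held the TATA box core. The nuclear receptor half-site was in 14.0% of them, the hypoxia core in 16.6% and the glucocorticoid half-site in 16.1%. A match describes letters only, and these windows say nothing about more distant sites. RefSeq entries were found for 9 of the 10 genes, the exception being Angptl4.

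In gene order on chromosome 17, the 4 measured genes before Plin4 were Sh3gl1, Chaf1a, Ubxn6 and Hdgfl2, and the 4 after it were Plin5, Lrg1, Sema6b and Tnfaip8l1. None of these 8 passed the test in either fasted group. Their log2 fold changes after 1 week ran from -0.12 (Tnfaip8l1) to 0.59 (Plin5), against 3.53 for Plin4. After 1 day Lrg1 had a log2 fold change of -1.72 (SE 0.60, edgeR adjusted p = 0.484), the largest SE of the 8.

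Among the lipases, Pnpla2, the first enzyme of triglyceride breakdown, rose after 1 week. It was at 32.0, 34.9 and 30.4 CPM in the ad libitum group, 62.7, 48.5 and 51.3 in the 1 day group and 55.7, 107 and 84.2 in the 1 week group. All 6 fasted libraries lay above the ad libitum ones, and 1 week replicate 1 fell inside the 1 day range. After 1 week the fold change was 2.54 (log2 1.34, SE 0.21, edgeR adjusted p = 0.0329), from a mean of 32.4 ± 2.26 to 82.3 ± 25.8 CPM (SD, n = 3). After 1 day it was 1.67-fold, to 54.2 ± 7.50 CPM, and did not pass (log2 0.74, SE 0.21, edgeR adjusted p = 0.383). DESeq2 and limma's voom also called Pnpla2 after 1 week (DESeq2 adjusted p = 8.65e-07, voom adjusted p = 0.0161). The 1 week call of Pnpla2 by edgeR was lost when any ad libitum library, 1 day replicate 1, or replicate 2 or 3 of the 1 week group was left out (edgeR adjusted p from 0.0634 to 0.202). It was also lost without both replicate 2 libraries named above (log2 1.12, edgeR adjusted p = 0.0627) and with the 6 compared libraries alone (1.35, edgeR adjusted p = 0.0617).

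The other lipases showed no call. Lipe was at 15.0, 18.6 and 17.7 CPM in the ad libitum group, 18.5, 10.9 and 16.8 in the 1 day group and 20.01, 16.9 and 21.3 in the 1 week group. The groups overlapped, 1 day replicate 2 being the lowest of the 9 libraries, and the log2 fold change after 1 week was 0.18 (95% interval -0.24 to 0.60). Mgll was at 55.7, 58.4 and 52.5 CPM in the ad libitum group, 52.9, 53.8 and 46.5 in the 1 day group and 57.5, 66.5 and 63.1 in the 1 week group. Mgll had the narrowest interval of the 10 genes against ad libitum, from -0.35 to 0.11 after 1 day and from -0.06 to 0.39 after 1 week on the log2 scale. A change of Mgll by a factor of 1.5 in either direction lies outside both intervals.

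Abhd5, the coactivator of Pnpla2, was at 17.6, 19.3 and 22.4 CPM in the ad libitum group, 15.6, 17.6 and 16.6 in the 1 day group and 18.3, 15.4 and 17.2 in the 1 week group. The 1 day libraries lay just under the ad libitum range, and the 1 week libraries overlapped it. Neither difference passed (log2 fold change -0.25 and -0.22, edgeR adjusted p = 0.544 and 0.560). The ratio of Pnpla2 to Abhd5 CPM was 1.81, 1.81 and 1.36 in the ad libitum libraries, 4.01, 2.76 and 3.10 in the 1 day libraries and 3.05, 6.98 and 4.91 in the 1 week libraries. The ratio was formed after the values were seen and is untested; fasted libraries did not overlap with ad libitum libraries.

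Hilpda, a hypoxia-inducible inhibitor of Pnpla2, did not pass the test in any comparison. Its values were 2.11, 2.00 and 2.21 CPM in the ad libitum group, 2.12, 1.65 and 2.01 in the 1 day group and 2.04, 2.32 and 2.52 in the 1 week group (log2 fold change after 1 week 0.12, 95% interval -0.29 to 0.53). Angptl4, a secreted inhibitor of lipoprotein lipase that fasting induces in other tissues, was at 4.24, 2.86 and 2.75 CPM in the ad libitum group. It was at 7.46, 2.79 and 5.69 CPM in the 1 day group and 6.58, 5.45 and 8.76 CPM in the 1 week group. The 1 week libraries lay above the ad libitum range, while 1 day replicate 2 sat inside it. Angptl4 did not pass after 1 week (2.11-fold, log2 1.08, SE 0.34, edgeR adjusted p = 0.266) or after 1 day (1.62-fold, log2 0.70, SE 0.34, edgeR adjusted p = 0.544).

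**Figure D3:**
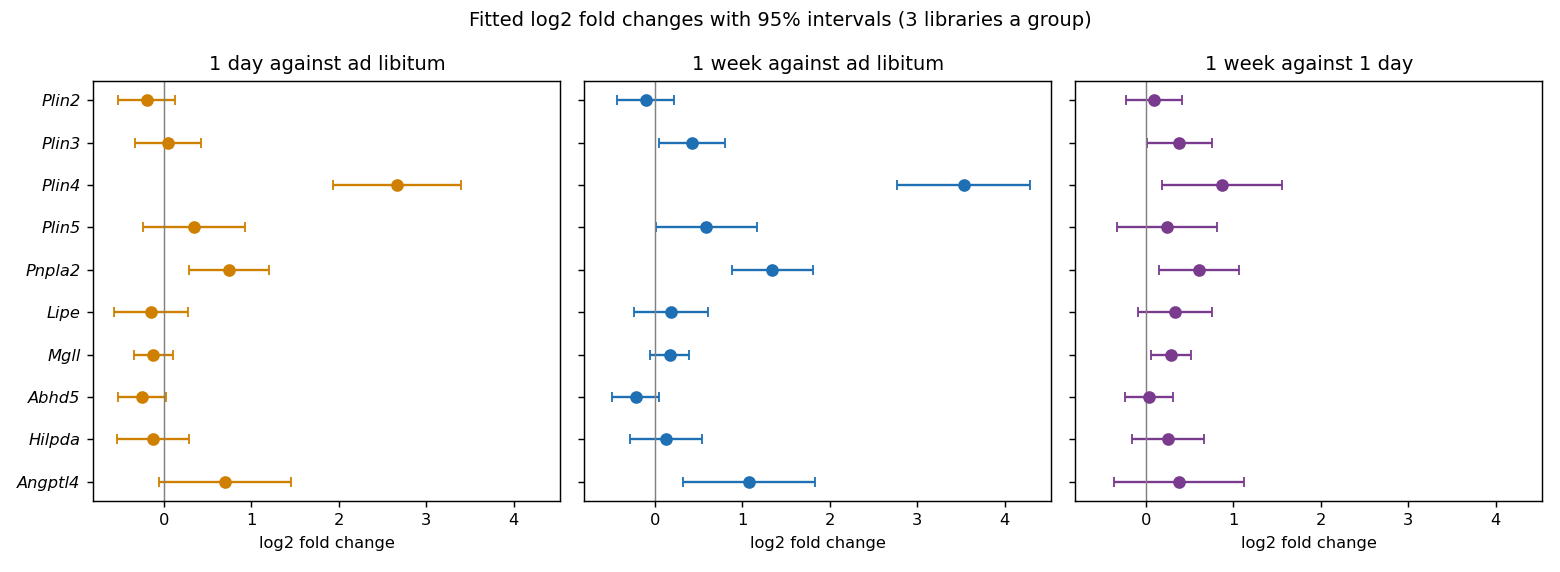
Log2 fold change (horizontal axes) of each gene in the 3 comparisons, with 95% intervals from the fit to all 9 libraries. Plin4 lies at 2.66 and 3.53 against ad libitum, Pnpla2 at 0.74 and 1.34, and the Mgll intervals against ad libitum are the narrowest.

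Plin4 chose the group, so the counts that follow leave it out. The other 9 genes were chosen by pathway with earlier results of these data in view, so the counts are descriptions. After 1 day edgeR called 0 of the other 9 genes, and DESeq2 and limma's voom 0 as well, where 0.0584% of all genes tested were called by edgeR (0.0536% higher and 0.00487% lower). After 1 week edgeR called 1 of 9, Pnpla2, where 0.307% of all genes were called (0.253% higher and 0.0536% lower). At an unadjusted p below 0.05 there were 1 of 9 after 1 day (9.27% of all genes) and 4 of 9 after 1 week (11.2%). Log2 fold changes were above 0 for 4 of 9 after 1 day (50.1% of all genes) and 7 of 9 after 1 week (49.8%). After 1 day 2 of 9 were higher without overlap (Plin5 and Pnpla2; 8.17% of all genes) and 1 was lower (Abhd5; 10.3% of all genes), beside 18.5% of all genes in either direction. After 1 week Pnpla2 and Angptl4 were higher without overlap (2 of 9; 10.9% of all genes) and 0 lower (11.5%), beside 22.4% in either direction. The median log2 fold change of the other 9 genes was -0.12 after 1 day and 0.18 after 1 week, beside 0.00041 and -0.0013 over all genes. Both comparisons use the same ad libitum libraries.

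Between repeated and single fasts no gene of the 20535 passed edgeR's test (0%), and so none of the 10 did. At an unadjusted p below 0.05 there were 1071 genes (5.22%). Of the 9 members other than Plin4 there were 3, Plin3, Pnpla2 and Mgll. DESeq2 called 3 genes and limma's voom with quality weights 0, none of them in the group. Plin4 was 1.82-fold higher after 1 week than after 1 day (log2 0.87, SE 0.31, edgeR adjusted p = 0.853), with no overlap between libraries. Pnpla2 was 1.52-fold higher (log2 0.60, SE 0.21, edgeR adjusted p = 0.853), and the groups overlapped. Mgll was 1.22-fold higher without overlap (log2 0.29, SE 0.10, edgeR adjusted p = 0.853). With Plin4 left out, 1 of 9 members (Mgll) was higher without overlap, where 4.5% of all genes were. Of these 9 members 0 were lower, where 3.28% of all genes were (7.79% in either direction). The log2 fold changes of all 9 were above 0, from 0.03 (Abhd5) to 0.60 (Pnpla2), where 49.9% of all genes were above 0. The signs of Abhd5 and Plin2 turned when 1 library was left out.

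Per kilobase of exon, the order of the 10 genes differed between groups. In the ad libitum group Pnpla2 (12.4 ± 0.862 CPM per kb) and Mgll (11.5 ± 0.611) led and overlapped with each other. Plin3 and Abhd5 followed at 8.08 and 6.26 CPM per kb and overlapped, then Plin2 at 4.24. Lipe and Plin4 overlapped at 3.12 and 2.98 CPM per kb, above Hilpda (1.91), Angptl4 (0.993) and Plin5 (0.342), which were separated from one another. In the 1 day group Pnpla2 (20.6 ± 2.86) and Plin4 (18.8 ± 6.38) led and overlapped. In the 1 week group Plin4 (34.4 ± 9.13) and Pnpla2 (31.4 ± 9.81) led and overlapped, clear of Mgll at 12.9 ± 0.947 CPM per kb. Plin5 was last in all 3 groups.

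Across the 9 libraries Plin4 and Pnpla2 had the highest correlation of any pair of members, with Pearson r = 0.92 of log2 CPM. The libraries form separate groups, so this r holds the group differences, and with each group's mean removed r was 0.56. The next highest pair was Plin5 with Pnpla2, at r = 0.86, and 0.71 with group means removed. With group means removed other pairs were higher, led by Plin3 with Abhd5 at 0.82 and Plin4 with Lipe at 0.78, and Plin4 with Hilpda was at 0.70. These are descriptions over 9 libraries, in each of which both genes share the depth and the RNA quality. Plin4 CPM divided by Pnpla2 CPM was 0.526 ± 0.121 in the ad libitum group, 1.99 ± 0.576 in the 1 day group and 2.49 ± 0.585 in the 1 week group (SD, n = 3).

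**Figure D4:**
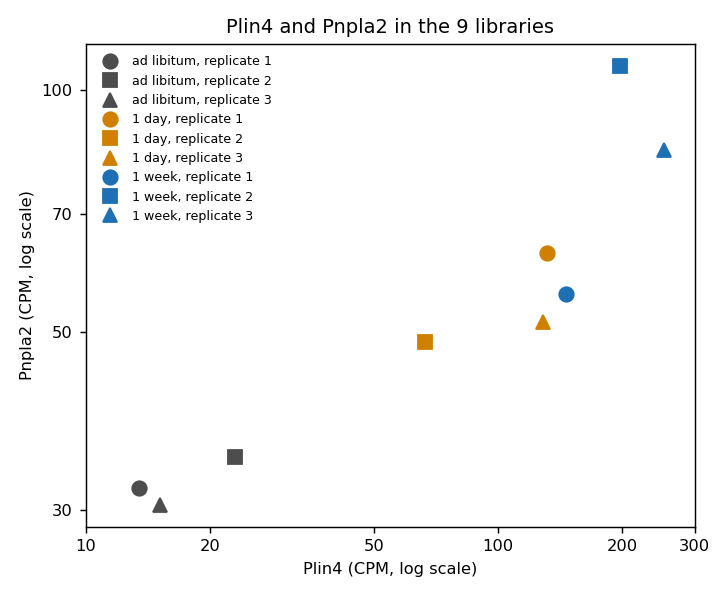
Plin4 (horizontal) against Pnpla2 (vertical), both in CPM on log scales, with 1 point for each of the 9 libraries, coloured by group. The 3 ad libitum points sit at the lower left, at 13.5 to 23.0 CPM of Plin4, and 1 week replicate 1 (146 and 55.7 CPM) lies beside 1 day replicates 1 and 3.

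Outside the group, the 5 named genes whose log2 CPM followed Plin4 most closely over the 9 libraries, of 13880 compared, were Arrdc2 (r = 0.989), Gabrr2 (0.988), Sult1a1 (0.982), Cdkn1a (0.979) and Itgad (0.975). Arrdc2 encodes an alpha-arrestin, Gabrr2 a GABA receptor subunit, Sult1a1 a sulfotransferase, Cdkn1a a cell cycle inhibitor and Itgad an integrin subunit. Arrdc2 averaged 15.9, 46.8 and 65.0 CPM in the ad libitum, 1 day and 1 week groups. The 5 closest to Pnpla2 were Mideas (r = 0.968), Cdkn1a (0.968), Mertk (0.967), Maff (0.964) and Bcl2l1 (0.964). Mertk encodes a phagocytic receptor, Maff a small Maf transcription factor and Bcl2l1 an inhibitor of cell death. Cdkn1a, which averaged 9.77, 41.9 and 88.8 CPM, was among the closest 5 of both genes. These r values are descriptions that hold the group differences.

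In the rest of the lipid droplet pathway edgeR called no gene. None of 17 measured droplet proteins outside the group passed after 1 day or 1 week, with median log2 fold changes of -0.05 and -0.13. For this list and those that follow, 9.27% of all genes had an unadjusted p below 0.05 after 1 day and 11.2% after 1 week. Of the 17 droplet proteins 1 and 2 did, and DESeq2 and limma's voom called 0. The smallest p after 1 week were those of Ldah, a droplet hydrolase (log2 fold change -0.43, edgeR adjusted p = 0.289), Lpcat2, a phospholipid acyltransferase (-0.49, adjusted p = 0.381), and Cideb, a droplet protein (-0.41, adjusted p = 0.454). None of 19 other lipases and regulators passed edgeR's test, with medians of -0.07 and -0.08. At an unadjusted p below 0.05 there were 1 after 1 day and 4 after 1 week, and DESeq2 and voom called 0 after 1 day and 1 after 1 week. Pnpla7, a lysophospholipase related to Pnpla2, missed the threshold after 1 week (0.71, SE 0.12, edgeR adjusted p = 0.0521). It was the gene called by DESeq2 and voom, and edgeR also called it with RLE factors, with the 6 libraries compared and without 1 day replicate 2. Lipa, the lysosomal acid lipase, was at -0.36 (adjusted p = 0.302) and Ddhd2, a brain triglyceride hydrolase, at -0.28 (adjusted p = 0.325). G0s2, a direct inhibitor of Pnpla2 named after its values were seen, averaged 4.41, 3.91 and 4.95 CPM in the ad libitum, 1 day and 1 week groups.

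None of 22 genes of triglyceride and sterol ester synthesis passed edgeR's test, with medians of -0.03 and -0.06. At an unadjusted p below 0.05 there were 2 after 1 day and 3 after 1 week, and DESeq2 and voom called 0. Dgat2, which adds the last fatty acid of triglyceride, was at 0.53 after 1 week (edgeR adjusted p = 0.344), Agpat4, an acyltransferase, at -0.35 (adjusted p = 0.385) and Acsl6, a fatty acyl-CoA ligase, at -0.24 (adjusted p = 0.429). None of 12 fatty acid transporters and binding proteins passed edgeR's test either (medians -0.04 and -0.11). At an unadjusted p below 0.05 there were 2 after 1 day and 3 after 1 week. DESeq2 called 0 and 1 of them, voom 2 and 2, and edgeR 2 in each comparison without 1 day replicate 2. In that list Mfsd2a, a lipid transporter of the blood-brain barrier, was at 0.86 and 0.88 (adjusted p = 0.407 and 0.215), Fabp7, a fatty acid binding protein of glia, at -1.17 after 1 week (adjusted p = 0.305), and Slc27a2, a fatty acid transporter, at -0.34 (adjusted p = 0.426). Of 12 endocannabinoid genes, the pathway of Mgll, none passed edgeR's test or had an unadjusted p below 0.05 (0 in both comparisons), and DESeq2 and voom called 0. The medians were -0.19 and -0.04. The smallest p after 1 week there were those of Cnr2, a cannabinoid receptor (0.50, adjusted p = 0.561), Naaa, a lipid amide hydrolase (0.27, adjusted p = 0.630), and Gde1, a phosphodiesterase (-0.27, adjusted p = 0.671).

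Angptl4, Plin2 and Plin4 are known targets of the PPAR nuclear receptors. Of 24 PPAR receptors and targets 0 passed edgeR's test after 1 day. At an unadjusted p below 0.05 there was 1, and DESeq2 and voom called 1 each. After 1 week 1 rose by edgeR's test, where 0.307% of all genes were called. At an unadjusted p below 0.05 there were 2 (11.2% of all genes), and DESeq2 and voom called 1 each. The medians were 0.02 and 0.01. The gene that rose was Pdk4, a kinase that limits glucose oxidation (log2 fold change 1.37, SE 0.19, edgeR adjusted p = 0.0229). The call of Pdk4 was lost when any ad libitum library, or replicate 2 or 3 of the 1 week group, was left out (edgeR adjusted p up to 0.169), and without both replicate 2 libraries of the fasted groups (adjusted p = 0.0708). Pdk4 is also one of the listed glucocorticoid-induced genes. The list's count was 1 after 1 day without 1 week replicate 1, and 2 after 1 week without 1 day replicate 2. Ucp2, a mitochondrial carrier, was at 0.52 (adjusted p = 0.373) and Rxra, the partner receptor of PPARs, at 0.25 (adjusted p = 0.495). Of 18 hypoxia-induced genes, the class of Hilpda, 0 passed edgeR's test after 1 day (5 at an unadjusted p below 0.05, 2 by DESeq2 and 0 by voom). After 1 week edgeR called 1 (5 at an unadjusted p below 0.05), and DESeq2 and voom called 2 each. The gene that rose was Slc2a1, the glucose transporter of the blood-brain barrier (0.92, SE 0.15, edgeR adjusted p = 0.0380). The call of Slc2a1 was lost when any ad libitum library, 1 day replicate 1, or replicate 2 or 3 of the 1 week group was left out (edgeR adjusted p from 0.0527 to 0.227), and without both replicate 2 libraries of the fasted groups (adjusted p = 0.0833). P4ha1, a collagen prolyl hydroxylase, was at -0.53 (adjusted p = 0.124) and Bhlhe40, a transcription factor, at -0.36 (adjusted p = 0.213).

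Genes induced through the glucocorticoid receptor, the hormone receptor active in fasting and stress, stood higher. Of 18 listed genes 4 rose after 1 day, Sgk1, Arl4d, Arrdc2 and Ddit4, and 14 did not pass. After 1 week 12 rose, the same 4 with Zbtb16, Klf9, Nfkbia, Cdkn1a, Sult1a1, Map3k6, Errfi1 and Pdk4, and 6 did not pass. The medians were 1.03 and 1.58 on the log2 scale. Over all genes tested edgeR called 0.0584% after 1 day and 0.307% after 1 week. At an unadjusted p below 0.05 there were 16 of the 18 listed genes in each comparison, where 9.27% and 11.2% of all genes were. DESeq2 called 12 and 15 of the listed genes, and voom 8 and 14. This list was written with results of these libraries known, so it is no independent evidence of its direction. Without ad libitum replicate 1, 2 or 3 the counts were 0 after 1 day, and 3, 5 and 3 after 1 week. Without 1 day replicate 1 or 3 the 1 day count was 2, and without 1 week replicate 2 or 3 the 1 week count was 5. Without both replicate 2 libraries of the fasted groups they were 5 and 7. Sgk1, a kinase of salt and stress signalling, had the smallest p after 1 week (log2 fold change 2.58, SE 0.20, edgeR adjusted p = 0.00154), followed by Arl4d (2.11, SE 0.17), a small GTPase, and Arrdc2 (2.03, SE 0.19).

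**Figure D5:**
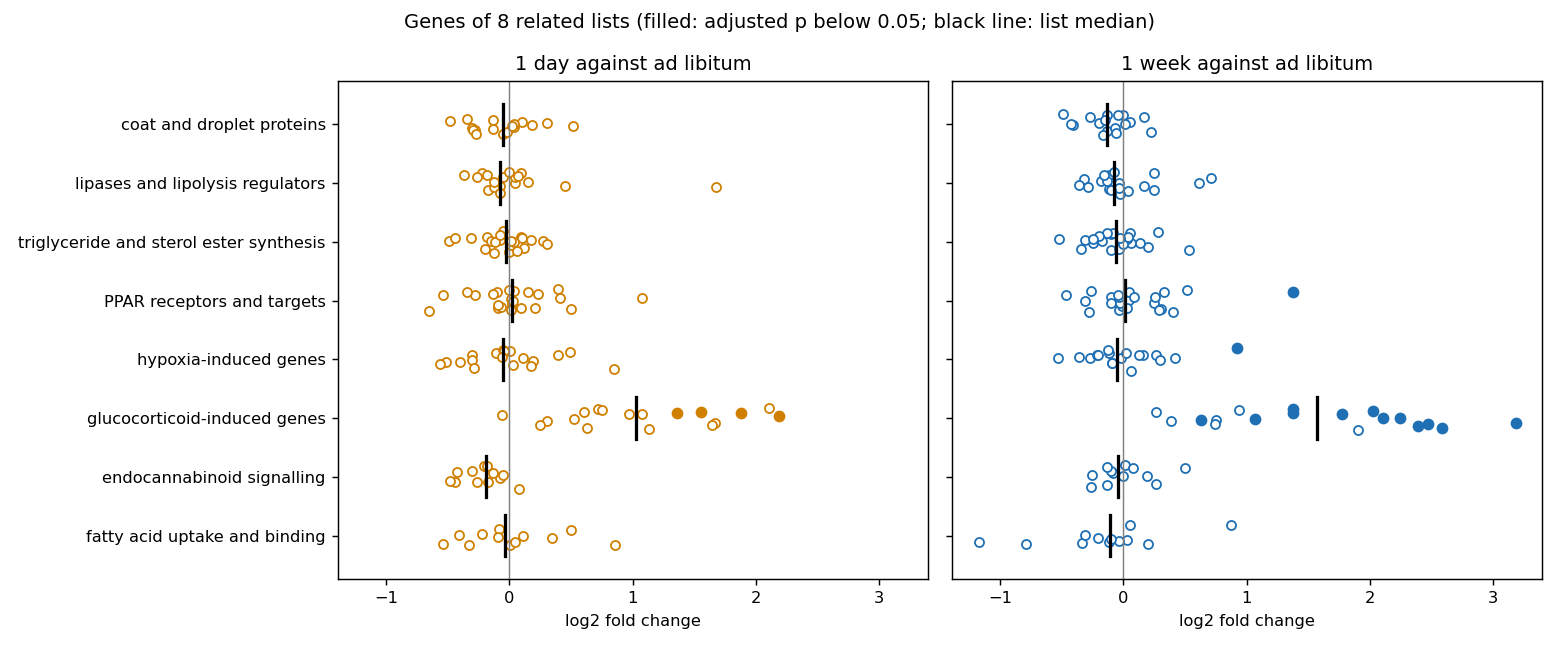
Log2 fold change (horizontal axes) of each gene in 8 related lists after 1 day and after 1 week, against ad libitum; filled points passed edgeR's test and black lines are list medians. The medians of 7 lists lie between -0.19 and 0.02, and that of the glucocorticoid list at 1.03 and 1.58.

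Markers of tissues rich in perilipins were near 0. Of 8 adipocyte markers Plin1 and Adrb3 were analysed here, and their summed level lay between 1.21 and 1.91 CPM in the ad libitum group, 1.16 and 1.56 in the 1 day group and 1.17 and 1.58 in the 1 week group. Plin1 itself, the main perilipin of fat cells, lay between 0.343 and 0.845 CPM in the 9 libraries. Of 8 striated muscle markers 4 were analysed here, with sums of 1.78 to 4.92, 2.25 to 4.86 and 1.64 to 5.07 CPM. The ranges of both lists overlapped between groups, and the part of these tissues in the results was not tested. Summed astrocyte markers (8 of 8) lay between 4774 and 4942 CPM in the ad libitum group, 4763 and 5397 in the 1 day group and 4987 and 5318 in the 1 week group. Summed oligodendrocyte markers (9 of 9) lay between 11358 and 13837, 9849 and 11701, and 10510 and 11919 CPM.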

How the data were processed

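Gene-level RNA-seq counts of 9 libraries, 3 per diet group, were analysed. A lipid tissue kit was used for RNA extraction and a directional polyA kit for libraries, per the labels' protocols. Tools and builds in the submitters' processing notes are Salmon, DESeq2 1.40.2, GRCm39 and mm39. The sources used here give neither Salmon's version nor the annotation nor any filter before deposit. The authors deposited estimated counts per gene, which are whole numbers without depth scaling and were used unrounded. The lowest row mean is 9.89 counts, and genes under about that level are not analysed here. Salmon shares reads between similar transcripts, so counts of close paralogs are uncertain. No pair of libraries agreed within sampling noise, the lowest chi-square per gene being 26.7.

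Tests used edgeR 4.0.16 in R 4.3.3 with TMM factors, filterByExpr (minimum count 10, minimum total 15; 56 rows removed) and a robust quasi-likelihood fit to all 9 libraries. They were two-sided, with Benjamini-Hochberg adjustment over 20535 genes and a threshold of 0.05. Levels are CPM on the TMM scale. Standard errors were derived from the F statistics. Levels per kilobase used merged exon lengths of GENCODE M21 (GRCm38), matched by gene identifier. No set test was run. The steps were also run on simulated counts. Those libraries were drawn independently, so the simulation cannot show how deviations shared between libraries affect the tests.

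The members and lists were chosen with earlier results of these data known. Genes named are the members, list genes past the test, the 3 smallest p per list after 1 week, the 5 genes most like Plin4 and Pnpla2 (mean log2 CPM of 0 or more, prior count 2), and marker genes. Alternatives were DESeq2 1.42.0, limma 3.58.1 (voom with quality weights), RLE factors, no low-count filter, a minimum of 1 CPM in 6 or more libraries, the 6 libraries compared, the replicate number as a block, and leaving out libraries.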

Additional observations from a re-analysis of the deposited data

How the results depend on the processing

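The counts of members past the threshold include Plin4, whose difference chose the group, so they describe the fits and test nothing about Plin4. After 1 day the count of 1 was 0 with the replicate block and ran from 0 to 1 when each library was left out in turn. It was 0 without each ad libitum library, 1 day replicates 1 and 3 and 1 week replicate 2. After 1 week the count of 2 became 1 with the replicate block, with the 6 libraries compared and without both replicate 2 libraries of the fasted groups, and ran from 0 to 2 over single libraries. It was 0 without ad libitum replicate 3. For these 2 comparisons, fewer samples or fewer degrees of freedom entered those fits, and whether that moved the counts was not tested. Of 9 same-numbered pairs 3 had deviations that correlated above 0.1, the full range being -0.24 to 0.41. Deviations from a mean of 3 libraries depend on one another, so these values cannot decide whether the replicate number pairs libraries. No label says that equal numbers share an animal, litter or day. The replicate block ended the 1 week calls of Pnpla2 (log2 fold change 1.33, edgeR adjusted p = 0.0936), Pdk4 (1.37, adjusted p = 0.0625) and Slc2a1 (0.92, adjusted p = 0.0921). Log2 fold changes of Plin4 stayed between 2.50 and 2.93 after 1 day and between 3.33 and 3.79 after 1 week over 17 alternatives, and those of Pnpla2 after 1 week between 1.12 and 1.56.

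Signs turned for differences near 0, none of which passed, and the cause was not tested. After 1 day the log2 fold change of Plin3 was -0.013 by limma's voom and -0.050 without both replicate 2 libraries, and ran from -0.10 (without ad libitum replicate 1) to 0.19 over single libraries left out. That of Lipe was 0.0093 and 0.048 under those 2 settings, and ran from -0.30 to 0.048 (without 1 day replicate 2). For 1 week against 1 day, Abhd5 ran from -0.030 (without 1 week replicate 1) to 0.10 and Plin2 from -0.011 (without 1 week replicate 1) to 0.19. Plin5 has no value under the filter of 1 CPM in at least 6 libraries. Over all genes, edgeR called 12, 63 and 0 genes in the 3 comparisons, DESeq2 187, 467 and 3, limma's voom 93, 296 and 0, and the replicate block 2, 32 and 0. The counts were 26, 155 and 0 with the 6 libraries compared and 50, 70 and 0 without both replicate 2 libraries. Leaving out single libraries gave 0 to 22, 8 to 121 and 0 to 3.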
